A study of Mus musculus with 44 samples.

Results

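Recombined HexERTVP2 clone 2 cells grown with 4-hydroxytamoxifen (4-OHT) were compared with cells of the same recombined clone grown without it. The comparison rests on 6 of the 44 deposited arrays, 3 with 4-OHT and 3 without, each numbered 2, 3 and 4 in the labels and taken by the words and code of their titles. All 44 arrays were Affymetrix MG-U74Av2 arrays of CGR8 cells (clone cgr8.8), a mouse embryonic stem (ES) cell line, and took biotin-labelled total RNA. The labels placed 40 of them in 11 groups (wild type, a Hex line before and after recombination, and HexERTVP2 clones 1 and 2 before and after recombination, each with or without 4-OHT), and 4 arrays whose title words and code disagree stayed out. Both groups compared here carried the same HexERTVP2 insertion at Rosa26 in its recombined form, so that 4-OHT was the only labelled difference. Beside them stand 6 arrays of clone 2 before recombination, 3 with 4-OHT and 3 without, and 8 arrays of recombined clone 1, 4 with 4-OHT and 4 without. Each of these groups is a single clone. The labels give no dose, no length of exposure and no vehicle, and are silent on whether replicate arrays are separate cultures, so each p-value covers only array-to-array spread, which may be technical. In the code of 4-OHT array 4 a minus sign follows the plus sign, and the array was placed by its title words and source.

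Hex, encoded by Hhex, belongs to the homeodomain proteins, marks the early anterior endoderm and mainly represses its targets, in part through Groucho co-repressors of the TLE family. The name HexERTVP2 reads as Hex fused to an oestrogen receptor part (ERT) and to a VP activation domain. Such receptor domains keep a fusion protein inactive until 4-OHT binds, and an activation domain fused to a repressor is commonly used to raise the genes that the repressor lowers. Rosa26 is active in most mouse cells, and recombination is the usual step that lets a gene placed there be expressed, although the labels do not state this for these cells.

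With 4-OHT, Zic2 (dimmer probe set), a neural transcription factor, and a probe set without a gene name read higher, and the immediate-early factor Egr1 (brighter probe set) and the activin subunit Inhbb read lower, on all 3 arrays, by at most 0.74 on the log2 scale. No probe set passed the threshold in the main comparison. Of 12422 probe sets tested with limma, 0 had an adjusted p under 0.05 (0% called; Benjamini-Hochberg over all probe sets), and 62 had an unadjusted p under 0.05 (0.499%), 29 higher (0.233%) and 33 lower (0.266%) with 4-OHT. Tests without any difference would put a share of about 0.05 there, so these p-values ran high. The 0 calls are therefore no sign that nothing changed. Without array 2 of unrecombined Hex, described below, the 62 became 157. Log2 changes ran from −0.70 to 0.74 around a median of 0.00, and 18 probe sets differed by more than 0.5 on the log2 scale. The median standard error was 0.15. The smallest adjusted p was 0.232, shared by Zic2, Egr1 and a probe set with no gene symbol, 100914_at. All 3 of the arrays with 4-OHT lay above all 3 without it in 307 probe sets (2.47%) and below them in 231 (1.86%), together 4.33%. The fit takes 1 spread per probe set from all 40 arrays, and array 2 of unrecombined Hex stood apart from the others (mean Pearson r of 0.869 with the other assigned arrays, which were at 0.978 or more). Without that array, which is not part of the comparison, 2 probe sets passed (0.0161% called): 100914_at rose (adjusted p = 0.00485) and Inhbb fell (adjusted p = 0.00505). The ratio of the 3′ to the 5′ β-actin control probe sets, which reflects how intact and how evenly labelled the RNA was, stood on the log2 scale at 1.17, 0.91 and 1.44 without 4-OHT and 1.34, 2.24 and 0.91 with it. With that ratio as a covariate 1 probe set passed (0.00805% called), that of Egr1 (adjusted p = 0.0226), and with both changes 6 probe sets did (0.0483% called): Zic2 and 100914_at rose, and Inhbb, Egr1, Tfap2c and Klf2 fell. Over all probe sets 4-OHT array 4 correlated best with array 3 without 4-OHT (r = 0.998), and less with the other arrays with 4-OHT (0.988 and 0.984).

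**Figure D1:**
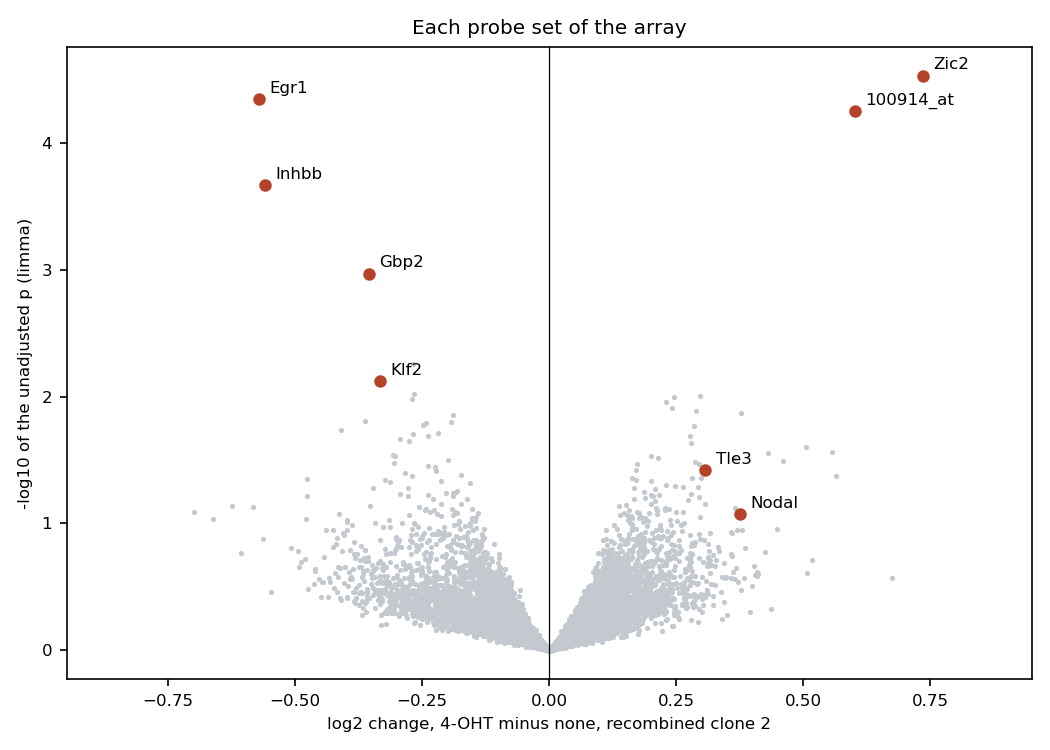
Each point is 1 of the 12422 probe sets, with its log2 change (4-OHT minus none, recombined clone 2) on the x axis and −log10 of its unadjusted limma p on the y axis; red points are named. Zic2 (dimmer probe set) and 100914_at lie at the upper right and Egr1 and Inhbb at the upper left, and none has an adjusted p under 0.232.

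Among transcription factors, Zic2 on the higher side and Egr1 on the lower side had the smallest p. Zic2, a zinc finger factor of early neural development, read 6.25, 6.24 and 6.26 on the log2 scale without 4-OHT and 7.39, 6.90 and 6.67 with it. The arrays without 4-OHT were nearly alike, and the groups did not overlap. The log2 change was 0.74 (SE 0.15, 1.67-fold), with a 95% interval of 0.43 to 1.04, and did not pass (adjusted p = 0.232). A brighter Zic2 probe set read 7.36, 7.48 and 7.47 without 4-OHT and 7.46, 7.48 and 7.25 with it, a change of −0.04 (SE 0.10). The Zic2 probe sets therefore disagreed. Egr1, an immediate-early factor induced by growth factor signalling, read 8.39, 8.49 and 8.37 without 4-OHT and 7.80, 7.91 and 7.83 with it. All 3 arrays with 4-OHT were low, for a change of −0.57 (SE 0.12, 1.49-fold). A dimmer Egr1 probe set gave −0.00 (SE 0.21). The 31 measured genes of the immediate-early list had a median change of −0.01. Among them Ccn2, a secreted matrix protein, was higher without overlap (9.31, 9.32 and 9.23 against 9.55, 9.65 and 9.89), while Fos overlapped between the groups.

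Probe set 100914_at, chosen after its values were seen, read 8.81, 8.67 and 8.82 without 4-OHT and 9.45, 9.24 and 9.41 with it, a change of 0.60 (SE 0.13, 1.52-fold). It has no gene symbol in the platform annotation. All 3 arrays with 4-OHT were higher than any array without it. Unrecombined clone 2 lay at 8.55 ± 0.17 without 4-OHT and 8.50 ± 0.09 with it (mean ± SD, n = 3 and 3).

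**Figure D2:**
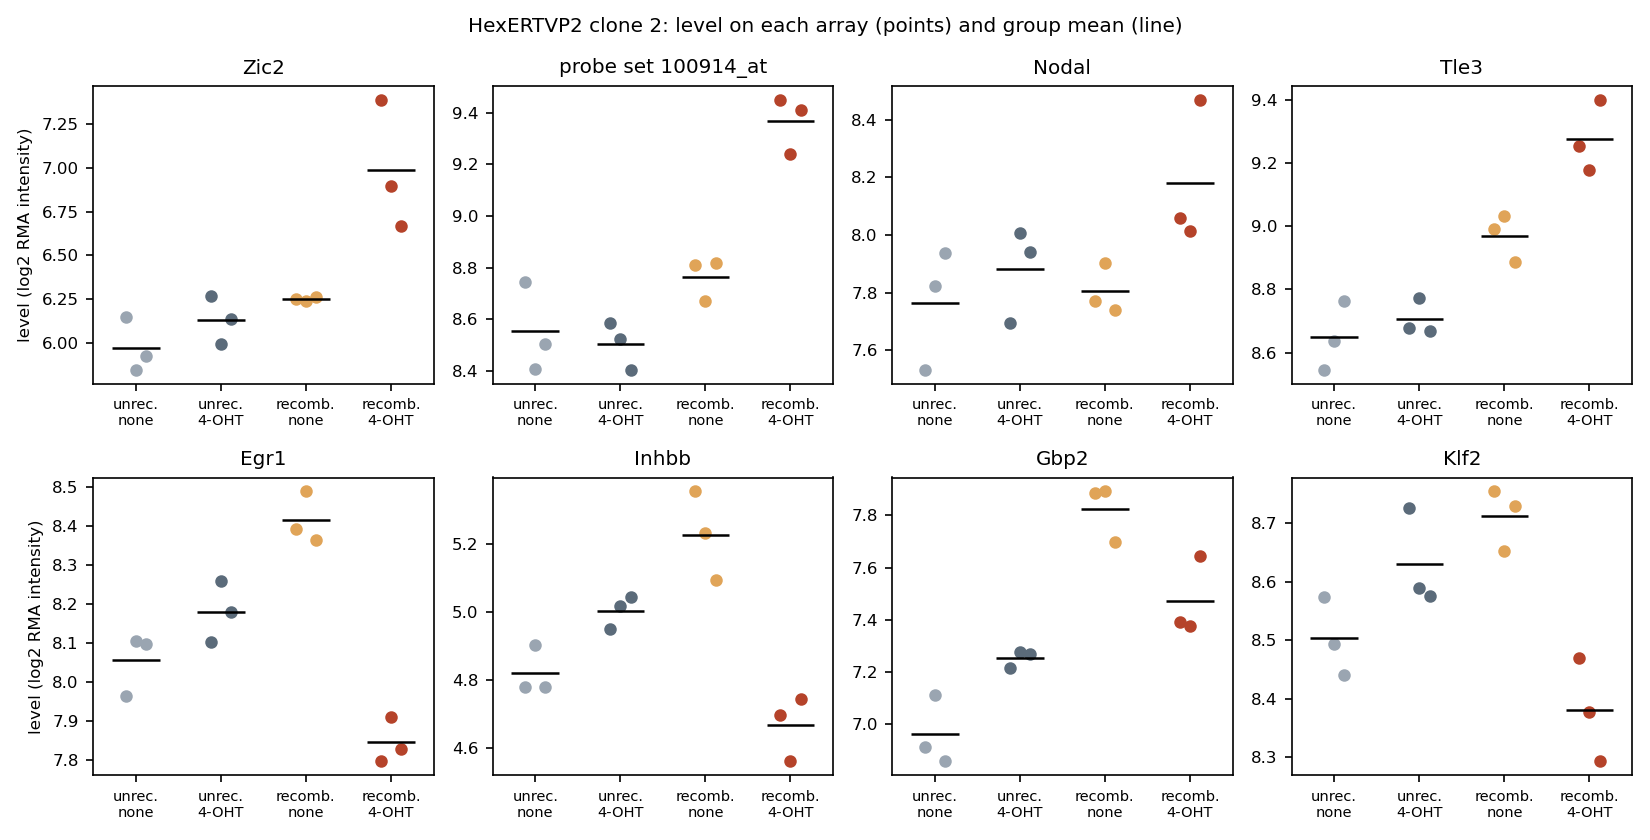
Log2 RMA intensity of 8 probe sets on each array of HexERTVP2 clone 2, before recombination (unrec.) and after it (recomb.), without and with 4-OHT; points are arrays and lines are means of 3 arrays, and the y axes differ and do not start at 0. In Zic2 (dimmer probe set), 100914_at, Nodal and Tle3 the 3 recombined arrays with 4-OHT lie above the 3 without, and in Egr1, Inhbb, Gbp2 and Klf2 they lie below them.

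Nodal signalling begins with Nodal, which binds activin receptors with the help of the co-receptor Tdgf1 (Cripto), and with activins, which bind them without it; both act through Smad proteins. Nodal, the ligand that patterns the early embryo, read 7.77, 7.90 and 7.74 without 4-OHT and 8.06, 8.01 and 8.47 with it. The groups did not overlap, and array 4 was the highest. The log2 change was 0.38 (SE 0.21, 1.30-fold; 95% interval −0.05 to 0.80; unadjusted p = 0.084) and did not pass; without array 4 it was 0.23. Inhbb, the βB subunit of activins and inhibins, read 5.36, 5.23 and 5.09 without 4-OHT and 4.70, 4.56 and 4.75 with it, a change of −0.56 (SE 0.13, 1.47-fold; adjusted p = 0.669 in the main fit). Inhbb was dim, at less than the median log2 level of all probe sets (6.77). Tdgf1 was at −0.31 (SE 0.13), and its arrays overlapped. Of the other receptors and Smads, Acvr1b, a type I receptor, was lower without overlap (−0.14), and the inhibitory Smad7 was higher without overlap (8.32, 8.31 and 8.11 against 8.75, 8.36 and 8.37; 0.25). Lefty1, a Nodal antagonist, overlapped (0.14). Of the 30 measured genes of the Nodal and TGF-β list 0 passed, 4 were higher and 2 lower without overlap, and the median change was 0.01. Inhbb among them was chosen earlier for its mean 4-OHT response over both clones. Over 8251 genes with 1 probe set each, 4.41% did not overlap (2.48% higher and 1.93% lower) and the median change was 0.00.

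The 250 bases before the RefSeq start site of Nodal (GRCm38.p6, chr10:61417722-61417971, plus strand) are shown because Nodal was a gene named by rule and ATTA is a core that many homeodomain proteins recognise. Capitals mark each ATTA, searched on both strands (TAAT on the other strand), and this window held 2. Of 32851 promoter windows of the same length 54.9% held at least 1, so the matches are a description of these letters and no binding site. The window of Inhbb held 0 matches, and Zic2 had no entry in the table. Tle4, searched as well, had 2 windows, 1 with 2 matches and 1 with 0.
Nodal: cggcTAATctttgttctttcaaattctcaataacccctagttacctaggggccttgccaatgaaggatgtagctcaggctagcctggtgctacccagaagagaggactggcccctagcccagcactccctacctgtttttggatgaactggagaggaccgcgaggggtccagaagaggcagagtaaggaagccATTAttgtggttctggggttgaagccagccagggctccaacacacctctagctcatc

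The TLE proteins, co-repressors that Hex and other factors recruit, had 4 measured members, of which 0 passed. Of the 4, 1 (Tle3) was higher without overlap, as were 2.48% of all genes. It was chosen earlier for its mean 4-OHT response over both clones. Tle3 read 8.99, 9.03 and 8.89 without 4-OHT and 9.25, 9.18 and 9.40 with it, without overlap (0.31, SE 0.14). Tle4 read 8.66, 8.96 and 8.45 without 4-OHT and 8.87, 8.84 and 9.57 with it. Its groups overlapped, and its change of 0.40 (SE 0.32; 95% interval −0.25 to 1.06) was 0.16 without array 4. Tle1 was at 0.19 and overlapped, and Tle5, a short family member, was at −0.06. The median of the list was 0.25, and 3 of the 4 were above 0, as were 4197 of all 8251 genes. Hhex itself read 6.25, 6.21 and 6.08 without 4-OHT and 6.11, 6.15 and 6.28 with it, a change of −0.00 (SE 0.18; 95% interval −0.37 to 0.37). Which part of the transcript its probe set reads, and whether it reads the inserted gene, is not given in the sources used here, so these values are no check of the transgene.

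Of the 27 measured genes of the pluripotency network 0 passed, 7 were above 0, and 2 were higher and 5 lower without overlap, where 2.48% and 1.93% of all genes were. Among these were Klf2, Nr5a2, Fbxo15 and Nr0b1, chosen earlier for their mean 4-OHT response over both clones. Nothing is therefore read from these counts. Klf2, a Krüppel-like factor of naive ES cells, read 8.76, 8.65 and 8.73 without 4-OHT and 8.47, 8.38 and 8.29 with it (−0.33, SE 0.12). Nr5a2, a nuclear receptor that activates Pou5f1, was at −0.27 (SE 0.13) on one probe set and at −0.01 (SE 0.12), with overlap, on another, dimmer one. Tbx3 was at −0.21, without overlap. Fbxo15, an F-box protein of ES cells, read 9.87, 9.87 and 9.80 against 9.24, 9.36 and 9.62, and Zfp42 (Rex1) was also lower without overlap (−0.26). Higher without overlap were Nr0b1 (Dax1), an orphan nuclear receptor, at 0.36 (SE 0.22), and Klf4 at 0.22. A second, dim probe set of Nr0b1 was at 0.00 (SE 0.23) and overlapped. The core factors overlapped between the groups: Nanog was at −0.09 and Sox2 at −0.05. Pou5f1 (Oct4) read 11.60, 11.90 and 11.52 without 4-OHT and 10.70, 10.72 and 11.79 with it. Arrays 2 and 3 with 4-OHT were thus low and array 4 was not. Tfap2c (AP-2γ), a factor of trophoblast and germ cells, read 9.0, 8.92 and 9.01 without 4-OHT and 8.56, 8.66 and 8.63 with it (−0.36, SE 0.14). Cited2, a transcriptional co-regulator, was at −0.27 and Krt7, a keratin, at −0.23, both without overlap. Of the 17 measured trophoblast genes 1 was higher and 3 were lower without overlap (2.48% and 1.93% of all genes), and the median was −0.03. Tfap2c among them was chosen in the same way as Klf2.

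Interferon-induced genes included 4 that were lower without overlap and 0 that were higher, of 24 measured (1.93% and 2.48% of all genes). Gbp2 and Gbp2b among them were chosen earlier for their mean 4-OHT response over both clones, so nothing is read from the count. Gbp2, a guanylate-binding GTPase, read 7.89, 7.89 and 7.70 without 4-OHT and 7.39, 7.38 and 7.65 with it (−0.35, SE 0.10, 1.28-fold; unadjusted p = 0.00108). Arrays 2 and 3 with 4-OHT were clearly lower and array 4 lay just under the lowest array without it. Its relative Gbp2b read 7.41, 7.37 and 7.46 against 7.0, 7.12 and 7.30 (−0.28, SE 0.12). Isg15, a ubiquitin-like modifier, read 7.57, 7.57 and 7.45 against 7.13, 7.29 and 7.26 (−0.30, SE 0.13). Psmb9, an immunoproteasome subunit, was at −0.15, and Irf1 (−0.21) and Psmb8 (−0.28) overlapped. None passed, and the median of the list was −0.04. With the dimmer probe sets left out (those below the median level) that median was −0.18, and with the β-actin ratio in the fit it was −0.09. The value after that filter is given here for this list only. Over all lists and settings 7 of 320 recomputed medians moved by more than the spread between arrays.

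The windows of 250 bases before the start sites of Gbp2 (GRCm38.p6, chr3:142620413-142620662, plus strand), Gbp2b (chr3:142594597-142594846, plus strand) and Isg15 (chr4:156200819-156201068, minus strand) are shown because these genes read lower together. Capitals mark GAAA followed after any 2 bases by another GAAA, the core of the interferon-stimulated response element, searched on both strands (TTTC on the other). Each window held it, Isg15 with 3 overlapping matches, while 2.98% of the 32851 windows held at least 1. These are known interferon-induced genes and were searched for that reason, and a match is no evidence of a factor bound there.
Gbp2: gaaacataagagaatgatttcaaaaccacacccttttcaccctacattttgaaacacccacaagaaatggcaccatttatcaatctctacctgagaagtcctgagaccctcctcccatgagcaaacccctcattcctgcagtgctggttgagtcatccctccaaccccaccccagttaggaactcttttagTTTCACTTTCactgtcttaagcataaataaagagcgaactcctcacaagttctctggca
Gbp2b: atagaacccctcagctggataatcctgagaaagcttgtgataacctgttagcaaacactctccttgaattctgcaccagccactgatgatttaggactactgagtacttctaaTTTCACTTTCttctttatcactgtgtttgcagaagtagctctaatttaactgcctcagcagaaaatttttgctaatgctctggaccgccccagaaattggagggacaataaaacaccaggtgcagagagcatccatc
Isg15: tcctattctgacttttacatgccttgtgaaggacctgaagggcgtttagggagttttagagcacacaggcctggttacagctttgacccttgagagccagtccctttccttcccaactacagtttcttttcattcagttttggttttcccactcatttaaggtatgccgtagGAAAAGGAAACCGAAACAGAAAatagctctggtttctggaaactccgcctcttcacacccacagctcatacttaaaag

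For Id1, Mcm3 and Slc2a1, 4-OHT arrays 2 and 3 read below all arrays without 4-OHT, and array 4 did not. In the BMP and Id list, with 15 of 23 measured genes above 0 and a median of 0.03, Id1, a target of BMP signalling, read 8.46, 8.65 and 8.25 without 4-OHT and 7.50, 7.38 and 8.39 with it. Its change of −0.70 (SE 0.39) was the lowest of all probe sets, yet its groups overlapped. Bmp4, the ligand, was lower without overlap (8.24, 8.17 and 8.15 against 7.94, 7.86 and 7.95; −0.27, SE 0.18). Of the 33 measured cell cycle genes 7 were above 0, and the median was −0.14. Mcm3, a subunit of the replicative helicase, read 10.30, 10.62 and 10.34 against 9.88, 9.76 and 10.77. Only Ccnd2 of that list did not overlap (−0.14), where 4.41% of all genes did not. Of the 23 hypoxia and glycolysis genes 6 were above 0 (median −0.10). Slc2a1, the main glucose transporter, read 9.40, 9.74 and 9.07 against 8.8, 8.34 and 9.38 (−0.56, SE 0.37). Once the β-actin ratio entered the fit, the median of the cell cycle list was −0.00, that of the hypoxia list −0.02 and that of the pluripotency list 0.01, and Id1 was at −0.40. Array 4 had the lowest β-actin ratio of the 3 arrays with 4-OHT, and the part of that ratio in these values was not tested beyond this fit.

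**Figure D3:**
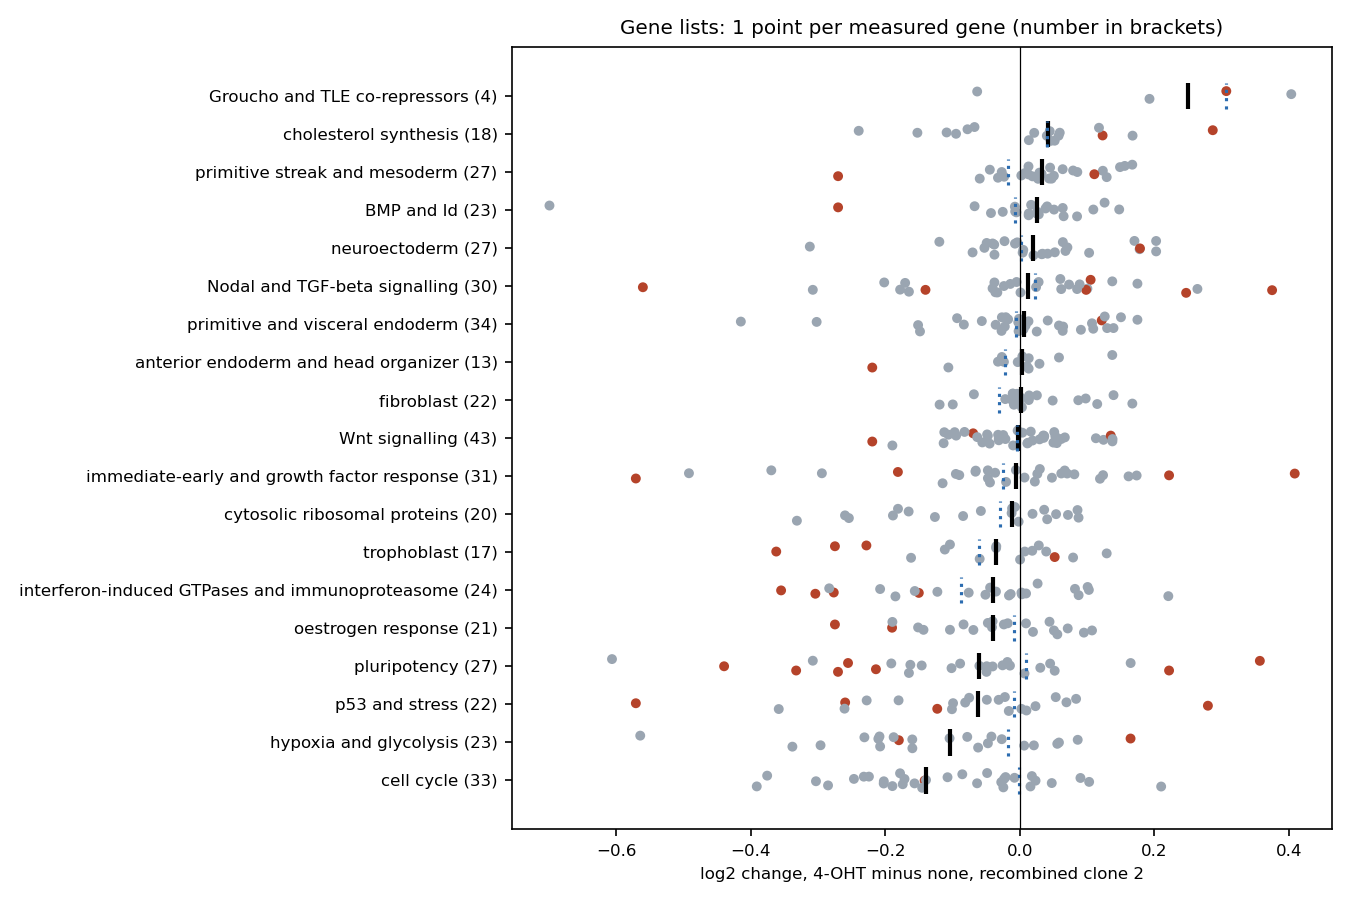
Each point is 1 measured gene of a list, with its log2 change (4-OHT minus none, recombined clone 2) on the x axis; red points are genes whose 3 and 3 arrays do not overlap, black bars are list medians and dotted blue bars are medians from the fit that includes the β-actin ratio. The TLE median lies at 0.25, and the cell cycle median moves from −0.14 to −0.00 with the covariate.

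The remaining differentiation lists lay near the median of all genes. Primitive and visceral endoderm genes had a median of 0.01 over 34 measured. Of the 34, 1 was higher without overlap (2.48% of all genes), the protease gene Plat (0.12). Krt18, a keratin of that list, read 7.47, 7.59 and 7.32 against 7.0, 6.64 and 7.50. Of the 13 anterior endoderm and head organizer genes, Sfrp1, a secreted Wnt antagonist, was lower without overlap (5.73, 5.86 and 5.72 against 5.48, 5.52 and 5.66; −0.22, SE 0.09), as were 1.93% of all genes. Cer1 and Gsc, markers of anterior endoderm and organizer, overlapped. Streak and mesoderm genes had a median of 0.03 over 27, neuroectoderm genes 0.02 over 27, fibroblast genes 0.00 over 22, BMP and Id genes 0.03 over 23, Wnt signalling genes −0.00 over 43, oestrogen response genes −0.04 over 21, cholesterol synthesis genes 0.04 over 18, p53 and stress genes −0.06 over 22, and ribosomal protein genes −0.01 over 20. In the cholesterol list Srebf1, a regulator of lipid synthesis, read 8.96, 9.0 and 8.89 against 9.48, 9.05 and 9.19 (0.29). Of 428 distinct genes measured over all lists, 0 passed. Fewer cells of a type and less RNA per cell cannot be told apart in such bulk RNA. ES cell markers were present, with 9 of 10 above the median level. Marker sums of other cell types overlapped between the groups: the summed intensity of 10 fibroblast markers was 1290 to 1503 without 4-OHT and 1232 to 1527 with it, that of 8 primitive endoderm markers 976 to 1133 and 931 to 1139, and that of 6 neural markers 2155 to 2376 and 1697 to 2312. Of these 24 genes 0 had arrays that did not overlap, against 4.41% of all genes.

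Among the other genes with the smallest p, the largest difference was that of Ptch1, the Hedgehog receptor, which read 8.70, 8.38 and 8.53 without 4-OHT and 9.26, 9.23 and 8.8 with it (0.56, SE 0.27). Another Ptch1 probe set was at −0.03. Sec61a1, the channel of the endoplasmic reticulum translocon, was at 0.56, with 0.21 in another probe set. Slc27a2, an acyl-CoA synthetase for very long fatty acids, read 8.01, 7.81 and 7.73 against 8.56, 8.47 and 8.04 (0.50). Aqr, a spliceosomal helicase, was at 0.43, with 0.03 in another probe set, and the kinase Map3k3 at 0.36, with 0.16 and 0.08 in others. Smaller positive values were those of Pla2g12a (0.29), Unc119b (0.29), Thap12 (0.25), Flii (0.21) and Tmem185a (0.17); other probe sets of Thap12 (−0.03) and Flii (−0.33 and 0.19) differed. On the lower side were riboflavin kinase Rfk (−0.29, with −0.14 and 0.06 in others), the syntaxins Stx7 (−0.27) and Stx18 (−0.23), the secreted phospholipase Pla2g10 (−0.27) and the mitochondrial carnitine carrier Slc25a20 (−0.24). All of these had arrays that did not overlap, by which they were chosen, and none passed.

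The same treatment before recombination asks how much of a 4-OHT difference appears without recombination of the inserted gene. In unrecombined clone 2, 0 of 12422 probe sets passed with limma (0% called) and 1097 had an unadjusted p under 0.05 (8.83%). Without array 2 of unrecombined Hex 29 passed (0.233%). The group without 4-OHT was uneven, with β-actin ratios of 1.48, 0.56 and 0.56 on arrays 1, 2 and 3. Group means were 0.87 without 4-OHT and 1.15 with it. The 1097 became 379 without array 3 of the group without 4-OHT, and 1515 without its array 1. The test of the difference between the responses, recombined minus unrecombined, called 0 (0%), with 421 at an unadjusted p under 0.05 (3.39%). The 421 became 189 without the same array 3, and 686 without array 2 of its group. Without array 2 of unrecombined Hex the test called 1 probe set (0.00805%), Inhbb, whose responses differed by −0.74 (SE 0.19 in the main fit, adjusted p = 0.0303 without the array). Before recombination Inhbb was at 4.82 ± 0.07 without 4-OHT and 5.0 ± 0.05 with it (mean ± SD, n = 3 and 3). Recombined cells without 4-OHT were therefore the high group, at 5.23 ± 0.13. The smallest p belonged to Prss23, a serine protease, with a difference of −0.78 (SE 0.15, adjusted p = 0.158). It came mostly from unrecombined cells, where Prss23 read 5.03, 5.13 and 4.79 without 4-OHT and 5.52, 5.47 and 5.72 with it (0.59), while recombined cells were at −0.19. Gbp2 differed by −0.65 (SE 0.14, adjusted p = 0.350): it was at 0.29 before recombination and −0.35 after it. Gbp2 was also higher in recombined than in unrecombined cells without 4-OHT, by 0.87 (SE 0.10, adjusted p = 5.7e-06; 0.322% of probe sets called in that comparison), so that recombined cells with 4-OHT, at 7.47 ± 0.15, lay between. Egr1 differed by −0.70 (SE 0.17) and the phosphatase subunit Ppp6c by −0.53, the latter with 0.43 before recombination and −0.10 after it. In the other direction Lrp5, a Wnt co-receptor, differed by 0.56, Ebi3, a cytokine subunit, by 0.49 and Znrf4 by 0.36, each with a negative value before recombination (−0.45, −0.36 and −0.27). Before recombination Lrp5 read 7.12, 7.19 and 7.73 without 4-OHT, where array 3 stood apart, and 6.93, 6.85 and 6.90 with it. None of these genes passed in the main fit. For Nodal the difference was 0.26 (SE 0.30) and for Tle4 0.28 (SE 0.45), both smaller than their errors. Some genes chosen on recombined clone 2 rose alike before recombination. Slc27a2 was at 0.49 before it, without overlap, and 0.50 after it. Pla2g12a was at 0.31 and 0.29, and Thap12 at 0.23 and 0.25. Ptch1 (0.38) and Sec61a1 (0.29) were also above 0 before recombination, while Flii was at −0.10. Genes lower with 4-OHT after recombination were at −0.01 (Isg15), −0.00 (Rfk), 0.00 (Stx18), 0.02 (Slc25a20), 0.05 (Pla2g10) and 0.14 (Stx7) before it.

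Recombined clone 1 gave a second clone under the same treatment. The test of clone 2 minus clone 1 called 0 probe sets (0%; limma), with 92 at an unadjusted p under 0.05 (0.741%), and 0 also without array 2 of unrecombined Hex. That share, too, was below the 0.05 that tests without any difference would give. In clone 1 the β-actin ratio moved the other way, at 1.58 without 4-OHT and 0.96 with it (means of 4 arrays), while in clone 2 it was 1.17 and 1.5. Across all probe sets the responses of the clones had r = −0.15, and −0.10 once the ratio entered the fit; probe sets share arrays and are not independent. Egr1 was at −0.50 (SE 0.11) in clone 1 and Zic2, by its dimmer probe set, at 0.48 (SE 0.13), beside −0.57 and 0.74 in clone 2. The brighter Zic2 probe set was at −0.04 in clone 2 and −0.01 (SE 0.08) in clone 1. Inhbb was at −0.38, Klf2 at −0.41, Gbp2 at −0.28, Tfap2c at −0.35, 100914_at at 0.44, Tle3 at 0.38, Nodal at 0.54 and Tle4 at 0.77, all of the sign seen in clone 2. Many of these genes were chosen on the mean of both clones, so their shared sign is no independent support. Of the 16 measured genes of that chosen list, 2 were higher and 11 lower without overlap in clone 2, and 8 of the 16 were lower with an unadjusted p under 0.05, against 0.533% of all 8251 genes in either direction, from which nothing is read for a list chosen this way. The list takes the brighter Zic2 probe set. Cpt1a, the carnitine palmitoyltransferase of fatty acid entry into mitochondria, was at −0.12 (SE 0.10) in clone 2 and −0.37 (SE 0.09) in clone 1, Calcoco2, an autophagy receptor, at −0.41 and −0.54, Ceacam1, an adhesion molecule, at −0.21 and −0.27, and the Notch ligand Dll1 at 0.17 and 0.26. Clone 1 also had values for genes chosen on clone 2 alone. Ptch1 was at −0.00 there, Sec61a1 at 0.07, Slc27a2 at −0.02, Aqr at −0.04 and Map3k3 at 0.00. Unc119b (0.09), Pla2g12a (0.02), Tmem185a (0.04), Flii (−0.04) and Thap12 (−0.05) were small as well. Of those lower in clone 2, Rfk was at 0.01, Isg15 at 0.03, Stx7 at 0.02 and Stx18 at 0.08. Srebf1 (0.24), Pla2g10 (−0.22) and Slc25a20 (−0.25) were larger, with the sign seen in clone 2. Among genes above the median level, the smallest p for a difference between clones belonged to Vps54, a vesicle tethering subunit, at −0.04 in clone 2 and −0.49 in clone 1 (difference 0.45, SE 0.16), followed upward by Thap12 (0.30) and Tfb2m (0.45) and downward by Fbxo6 (−0.38), Spats2 (−0.22) and Stx7 (−0.28). Each of these had an adjusted p of 0.9999.

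**Figure D4:**
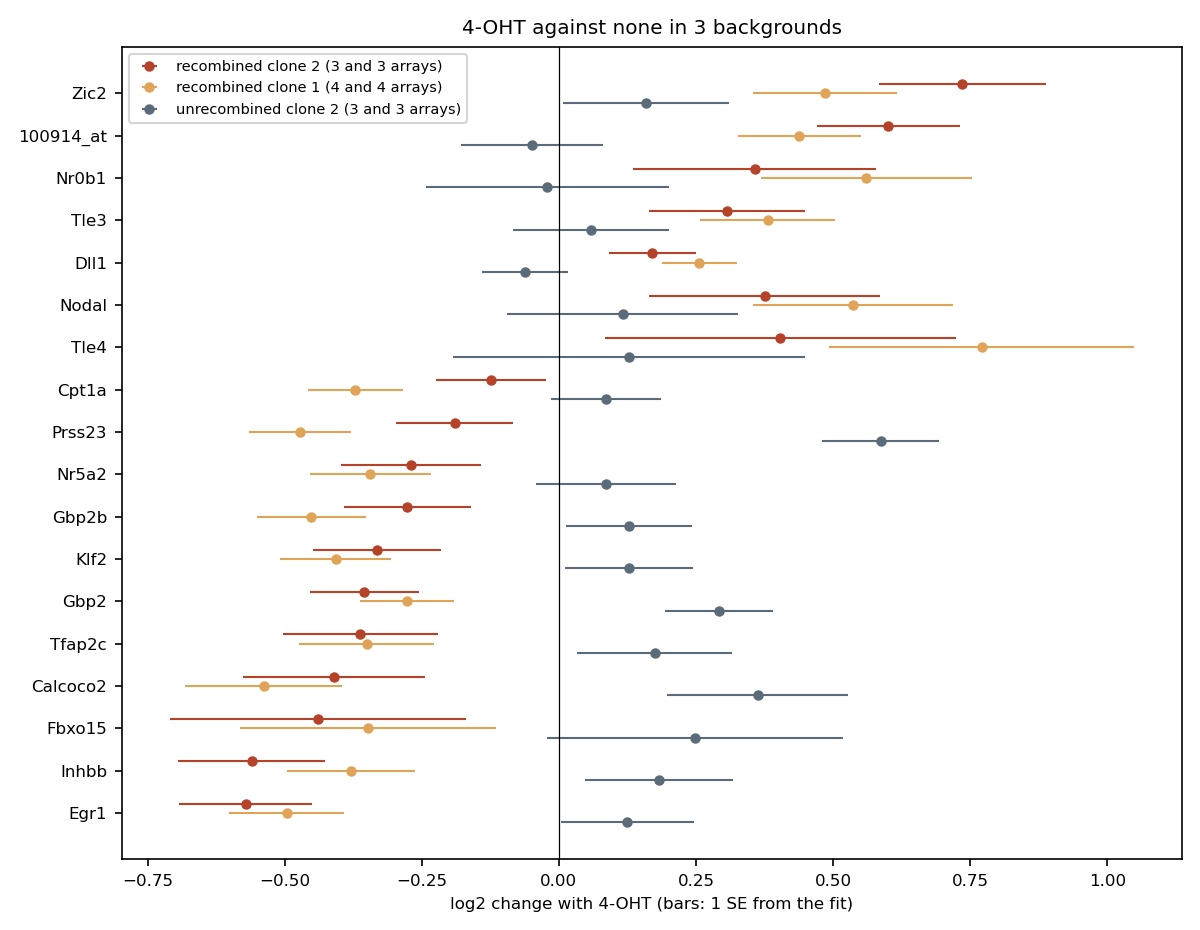
Log2 change with 4-OHT (points; bars are 1 SE from the fit) in recombined clone 2, recombined clone 1 and unrecombined clone 2, for 18 probe sets. Points of the recombined clones share their sign, partly because most genes were chosen on their mean, and Prss23 lies at 0.59 in unrecombined clone 2 and at −0.19 in recombined clone 2. Genes such as Ptch1 and Sec61a1, chosen on clone 2 alone, are not drawn, nor is the brighter Zic2 probe set.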

How the data were processed

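Log2 values were computed from the deposited intensity of 44 MG-U74Av2 arrays, which the authors made with RMA (per the submitters' processing notes, without version or settings); the values are linear. RMA corrects background, normalises arrays by quantiles and summarises each probe set, which shrinks differences of dim probe sets. Of 12488 probe sets, 66 control sets were removed and 12422 tested without an intensity filter. Gene symbols were those of GEO's platform annotation (10833 probe sets with 1 symbol, 396 with several, 1193 with none). A model with 1 mean per group was fitted to 40 arrays in limma 3.58.1 (R 4.3.3; lmFit, eBayes, 29 residual degrees of freedom, two-sided), with Benjamini-Hochberg adjustment at 0.05; SEs and 95% intervals come from it and ± is an SD. Precision is limited by the few arrays per group, and the SEs also depend on the other arrays in the fit. The procedure was tested on simulated data.

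The members, the 20 gene lists and the tests were chosen with earlier results of these data known. Each list gene is represented by its brightest probe set. Named genes were Hhex, Tle4, Nodal, the 16 genes leading the 4-OHT response averaged over clones, up to 12 genes each way that passed or else had the smallest p among probe sets above the median level whose arrays did not overlap, up to 4 passing or else 2 genes per list, and up to 5 passing or else 3 genes each way per test of a difference. List members named for their arrays not overlapping or for their role (Ccn2, Fos, Smad7, Acvr1b, Lefty1, Tle1, Tle5, Tbx3, Zfp42, Klf4, Nanog, Sox2, Pou5f1, Cited2, Psmb9, Irf1, Psmb8, Mcm3, Ccnd2, Plat, Cer1 and Gsc) and probe set 100914_at were chosen after their values were seen. Alternatives were other normalisations, an intensity filter, an intensity trend, array weights, other sets of arrays, a β-actin covariate, a replicate block and left-out arrays; the combination of the covariate with leaving out array 2 of unrecombined Hex was added after seeing the data. Promoters come from RefSeq (GRCm38.p6). Figures used matplotlib 3.10.9 in Python 3.11.15.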

Additional observations from a re-analysis of the deposited data

Results flagged for a closer look

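In 7 of 74 pairs of a named gene and a group of 4 recombined clone 1 arrays, 1 array stood far from the other 3 relative to the range of its group; chance marks about 1 in 20. Groups of 3, which include both clone 2 groups, were not screened. With 4-OHT, Zic2 read 6.34 on array 4 and 6.60 to 6.64 on the others, Prss23 read 6.06 on array 3 (others 5.80 to 5.84), and Hhex read 6.31 on array 2 (others 6.13 to 6.16). Stx7 read 6.87 on array 2 (others 6.97 to 6.99) and Unc119b 8.99 on array 1 (others 8.66 to 8.69). Without 4-OHT, Klf2 read 8.31 on array 2 (others 8.47 to 8.50) and Fbxo15 9.27 on array 1 (others 9.70 to 9.73).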

How the results depend on the processing

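For 4-OHT in recombined clone 2 the main fit called 0 probe sets. It also called 0 with median centring, repeated quantile normalisation, probe sets below the median level left out, an intensity trend, and only the arrays compared. It called 2 without array 2 of unrecombined Hex, 1 with the β-actin covariate, 6 with both changes and 839 with array weights, which gave the arrays of the whole set weights of 0.0277 to 4.04. The highest weight, 4.04, was that of 4-OHT array 2 of this comparison, beside 0.751 and 0.393 for 4-OHT arrays 3 and 4. Arrays 2, 3 and 4 without 4-OHT had 3.04, 1.76 and 0.775. Leaving out each array gave 0 to 1 calls; the 1 was Zic2 without 4-OHT array 4. With the replicate number as a block it called 0 (58 at an unadjusted p under 0.05). Deviations from the group mean had r of 0.256, −0.69 and −0.595 between arrays of the same number (2, 3 and 4). Whether the numbers pair the samples cannot be told from these values, since deviations within a group of 3 are tied to each other. Named genes past the threshold numbered 2 without that array, 1 with the covariate, 6 with both and 29 with weights (0 to 1 with an array left out), and list genes 1, 1, 4 and 61 in the same order (0 with any array left out). The difference from unrecombined clone 2 had 0 calls in the main fit, 1 without array 2 of unrecombined Hex, 6 with both changes, 806 with weights and 0 with any array left out. Clone 2 minus clone 1 had 0 in every setting. Unrecombined clone 2 had 0 calls in the main fit, 1 each with median centring, quantile normalisation and an intensity trend (Prss23 each time), 29 without array 2 of unrecombined Hex, 330 with both changes, 104 with weights and 0 to 5 with an array left out (5 without array 1 and 3 without array 2 of the group without 4-OHT). The causes of these changes were not tested. Of 37 named genes 36 kept their direction in every setting in which they were run (16 for 32 genes and 15 for the others, among them Inhbb, Zic2, Prss23 and Ceacam1). Most of these genes were chosen for arrays that do not overlap or for their 4-OHT response, so a kept direction was largely fixed in advance. Each was run on its probe set of smallest p, which leaves out the other Zic2 and Egr1 probe sets. Nothing is therefore read from the count. Hhex, near 0, turned to 0.04877 with the covariate and ran from −0.05507 to 0.03273 with an array left out. The number of arrays, 3 a group, limits the precision, and the SEs also depend on arrays outside the comparison. In the main fit the median SE was 0.15 on the log2 scale, and no difference of any size passed. Without array 2 of unrecombined Hex, the SE fell from 0.18 to 0.089 for Hhex and from 0.27 to 0.12 for Fbxo15. It stayed at 0.15 for Zic2 (dimmer probe set) and at 0.12 for Egr1 (brighter probe set).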

Other observations

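The 4 arrays whose title words and code disagree were put in no group. In accession order they read 6.58, 6.06, 6.43 and 6.84 for Zic2, 8.54, 8.09, 8.35 and 7.90 for Egr1, 4.91, 4.87, 5.16 and 4.98 for Inhbb, and 8.44, 8.34, 8.74 and 9.32 for 100914_at. Nodal read 7.62, 7.79, 7.80 and 8.25, Tle4 8.04, 8.98, 8.54 and 9.16, and Gbp2 8.62, 7.19, 7.68 and 7.64.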
